A study of Mus musculus with 15 samples.

Results

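The 79 potassium channel genes considered here were genes with array values whose platform annotation symbol begins with Kcn, among 16401 named genes with values. The rule left out 3 such symbols, Kcng2, Kcnj8 and Kcnj13, so every share of the 79 below is taken without them. The 79 genes were measured in whole hippocampus of adult female mice on 15 one-colour arrays, 5 in each of 3 groups. These were exercised SAMP8 mice, sedentary SAMP8 mice and sedentary SAMR1 mice. SAMP8 is a senescence-accelerated line and SAMR1 is a senescence-resistant line of the same series of inbred mice. The labels name no allele or drug, and a difference between SAMP8 and SAMR1 is one between lines of different descent. Neither an exact age nor the kind or length of the exercise is stated in the labels. Arrays carry biological replicate numbers from 1 to 5 within each group, but no label ties an array to a single mouse. Every p-value therefore refers to variation among the 15 samples.

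Potassium channels let potassium leave or enter a cell and so set its resting voltage, the shape and spacing of its action potentials and the recovery after firing. Voltage-gated Kv subunits form the pores, silent Kv subunits join and alter them, calcium-activated channels open after firing, inward rectifiers and tandem-pore leak channels hold the resting potential, and auxiliary subunits tune the pores. In the hippocampus these families shape the firing of pyramidal cells, granule cells and interneurons, and glial channels take up potassium from the extracellular space.

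Of the 79 genes, 14 encode Kv1 to Kv4 pore subunits, 7 silent Kv subunits, 3 Kv7 subunits, 7 members of the ether-a-go-go (EAG) family, 8 calcium- or sodium-activated pores, 12 inward rectifiers, 10 tandem-pore leak channels and 15 auxiliary subunits. The other 3 are non-coding RNA genes. Levels are log2 intensities, each gene read by its brightest array feature, with intensities under 39.2 set to that floor. Of the 79 genes, 69 were above the floor on every array, and Kcnj15, Kcnj5 and Kcnv2 were at the floor on more than 7 of the 15. Levels of different genes come from different probes and are not compared with each other.

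All 20 hippocampal markers examined were above the floor on every array. Of these, Nrp1 and Spink8 were higher in sedentary SAMP8 than in SAMR1 hippocampus (log2 differences 0.53 and 1.07), and 18 were not called. By sign, 9 of the 20 were above 0 and 11 below. In exercised SAMP8 against SAMR1, C1ql2 (0.70) was called higher as well, with 17 not called. All genes were called at 2.63% and 3.6% in these comparisons. The SAMR1 replicate 5 array stood apart from the other SAMR1 arrays in 8 striatal marker genes, with a mean log2 intensity of 9.33 against 7.57 to 7.71 in the other 4. The summed intensity of these genes was 34513 on that array. It also varied within SAMP8, from 5750 to 13870 in sedentary and from 6127 to 13396 in exercised mice, with the highest in sedentary SAMP8 replicate 5. Of 11 pericyte and smooth muscle markers 5 (Pdgfrb, Rgs5, Vtn, Cnn1 and Anpep) were higher in sedentary SAMP8 than in SAMR1 hippocampus. So were 5 of 14 markers of meningeal fibroblasts, and the others of these 2 lists were not called. Of all genes, 1.46% were called higher. The summed intensity of the 11 pericyte and smooth muscle markers ranged from 12389 to 16737 in sedentary SAMP8 and from 7478 to 12268 in SAMR1 hippocampus, and that of the 14 meningeal markers from 42852 to 54268 in sedentary SAMP8 and from 25281 to 50398 in SAMR1 hippocampus. Every gene of both lists was above the floor on all arrays. The part of the pericyte and smooth muscle list in the differences below was not tested, as no fit held it. That of the meningeal list was not tested beyond a fit with 2 covariates, its mean level and that of the choroid plexus list.

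The first comparison asked which potassium channel genes differed between the sedentary lines. Kcnj11 and Kcnk1 were higher and Kcnn2 was lower in sedentary SAMP8 than in SAMR1 hippocampus, each by 0.41 to 0.49 on the log2 scale, and the other 76 genes were not called. A gene was called at a Benjamini-Hochberg adjusted p under 0.05 over all 16401 genes in 1 limma fit of the 15 arrays. The 3 called genes are 3.8% of the 79, beside 2.63% of all genes, so their share was close to the background. That share does not count Kcng2, Kcnj8 and Kcnj13, which the rule left out. By direction, the 2 higher genes were 2.53% of the 79 against 1.46% of all genes, and the 1 lower gene was 1.27% against 1.16%. Unadjusted p was under 0.05 for 11 of the 79 genes, or 13.9%, against 11.2% of all genes. The median log2 difference of the 79 genes was 0.01 and that of all genes was 0.00, and 41 of the 79, or 51.9%, were above 0, against 51% of all genes.

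Kcnj11 encodes Kir6.2, the pore of the ATP-sensitive potassium channel, which closes when cellular ATP is high. Its log2 intensity was 8.85, 9.02, 8.81, 8.90 and 8.95 in exercised SAMP8, 8.70, 9.12, 8.94, 8.87 and 8.72 in sedentary SAMP8, and 8.60, 8.47, 8.27, 8.35 and 8.54 in SAMR1 hippocampus. Every SAMP8 array, exercised or sedentary, was above every SAMR1 array. Kcnj11 averaged 8.87 ± 0.17 in sedentary SAMP8 and 8.45 ± 0.14 in SAMR1 hippocampus (SD, n = 5 each), a log2 difference of 0.42 ± 0.09 (SE) or 1.34-fold, with a limma adjusted p of 0.0179. In bulk tissue, a change in the share of cells that express a gene and a change in RNA per cell cannot be told apart. Abcc8, which encodes the sulfonylurea receptor that pairs with Kir6.2, had a log2 difference of 0.10 ± 0.17 and was not called.

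Kcnk1 encodes TWIK-1, a tandem-pore leak channel. It read 11.50, 11.32, 11.17, 11.54 and 11.33 in exercised SAMP8, 11.11, 11.30, 11.45, 11.27 and 11.37 in sedentary SAMP8, and 10.90, 10.93, 10.56, 11.05 and 11.03 in SAMR1 hippocampus. The SAMP8 and SAMR1 arrays did not overlap here either. Between sedentary lines the log2 difference was 0.41 ± 0.10 (SE, 1.33-fold) and the limma adjusted p, 0.049, lay just under the threshold.

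Kcnn2 encodes SK2, a small-conductance calcium-activated channel that contributes to the hyperpolarisation after firing and also acts at synaptic spines of pyramidal cells. It read 12.24, 12.36, 11.91, 12.24 and 11.96 in exercised SAMP8, 11.75, 11.90, 11.98, 12.05 and 12.42 in sedentary SAMP8, and 12.38, 12.57, 12.51, 12.43 and 12.69 in SAMR1 hippocampus. Of the 5 sedentary SAMP8 arrays, replicate 5 lay inside the SAMR1 range and the other 4 below it, while all 5 exercised arrays lay below it. Kcnn2 averaged 12.02 ± 0.25 in sedentary SAMP8 and 12.52 ± 0.12 in SAMR1 hippocampus (SD, n = 5 each), a log2 difference of -0.49 ± 0.12 (SE) with a limma adjusted p of 0.0369.

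**Figure D1:**
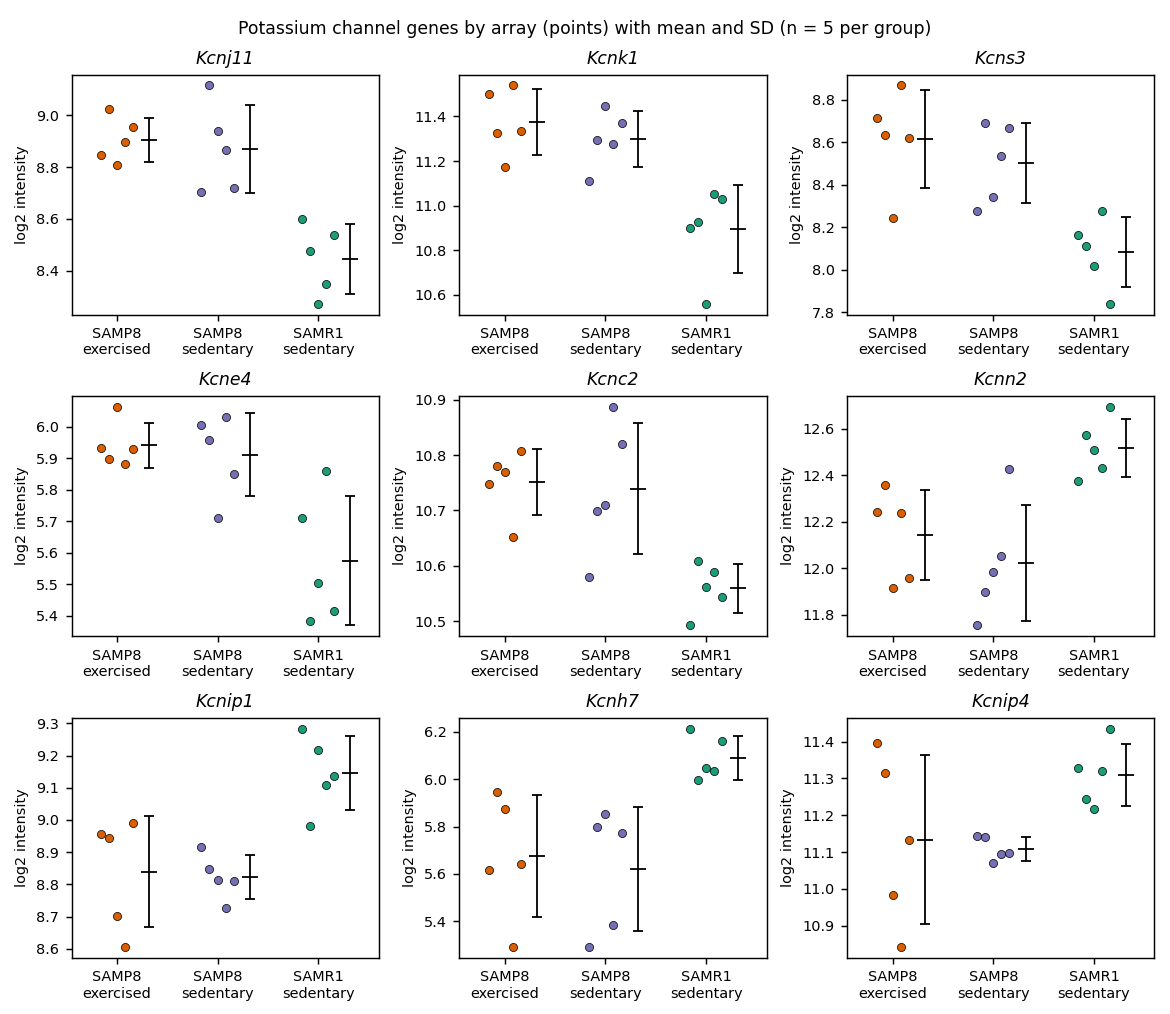
Log2 intensity (vertical axes, which do not start at 0) of 9 potassium channel genes on each array, by group, with 1 point per array and the mean and SD of 5 arrays beside them. Every SAMP8 array exceeded every SAMR1 array for Kcnj11 and Kcnk1, the lowest SAMP8 arrays reached the SAMR1 range for Kcns3, and the exercised and sedentary SAMP8 arrays overlapped in each panel.

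The calls between sedentary lines were not firm. Same-numbered sedentary SAMP8 and SAMR1 arrays deviated together in all 5 pairs, and with the replicate number as a block over all 15 arrays only Kcnj11 was called (limma adjusted p = 0.0262), with 0.0622 for Kcnk1 and 0.0544 for Kcnn2. That block also holds the exercised arrays, whose numbers were not taken as a pairing. Of all genes, 2.8% were called with it. A block fitted to the compared groups alone, which holds only the paired arrays, called Kcnn2 (0.0147), Kcnc4 (0.0275) and Kcnip1 (0.0433), with 0.0725 for Kcnj11 and 0.0931 for Kcnk1. Of all genes, 3.95% were called with that block. Leaving out SAMR1 replicate 3, sedentary SAMP8 replicate 2 or sedentary SAMP8 replicate 3 left 0 of the 79 genes called, beside 2.18% to 2.35% of all genes. Leaving out SAMR1 replicate 5, the array high in striatal markers, left Kcnj11 alone, beside 2.11%. Kcnj11 kept its call in 11 of 15 fits without 1 array (highest adjusted p = 0.0566, without SAMR1 replicate 3), Kcnn2 in 6 (0.104, without sedentary SAMP8 replicate 1) and Kcnk1 in 3 (0.133, without sedentary SAMP8 replicate 3). With the 2 marker covariates the log2 differences stayed about as large while their SE grew: 0.49 ± 0.15 for Kcnj11, 0.38 ± 0.16 for Kcnk1 and -0.59 ± 0.14 for Kcnn2. None was then called, with limma adjusted p of 0.266 for Kcnj11, 0.588 for Kcnk1 and 0.0696 for Kcnn2. Of all genes, 0.848% were called in that fit.

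The voltage-gated pore families held no called gene between sedentary lines in the fit without the replicate block. The 14 Kv1 to Kv4 genes had log2 differences of -0.23 to 0.31, with 7 above 0, 7 below 0 and a median of 0.03. Kcnc4, which encodes the fast-inactivating Kv3.4, was at the upper end, at 10.17 to 10.61 in sedentary SAMP8 and 9.84 to 10.32 in SAMR1 hippocampus, a log2 difference of 0.31 ± 0.11 (SE) and a limma adjusted p of 0.239. With the replicate block on the compared groups Kcnc4 was called (adjusted p = 0.0275), the only call among 12 other settings. It was called in 0 of 15 fits without 1 array. With the 2 marker covariates its difference was 0.05 ± 0.17 (limma adjusted p = 0.99). Kcnc2, which encodes the Kv3.2 pore of fast-spiking interneurons, differed by 0.18 ± 0.07 and Kcna5, a Kv1.5 pore gene, by -0.23 ± 0.10, neither called. The 3 Kv7 genes, whose products carry or resemble the M-current, lay between -0.15 and 0.05.

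Among the 7 silent Kv genes, each read by its brightest feature, Kcns3 had the largest difference between sedentary lines. A dimmer feature of Kcns2 differed by -0.44 ± 0.12 (SE) with groups that did not overlap, against -0.25 for its brightest feature. Neither Kcns2 feature was called in a fit over all features. Kcns3 encodes Kv9.3, which forms no channel alone and alters Kv2 pores. It read 8.71, 8.63, 8.24, 8.87 and 8.62 in exercised SAMP8, 8.28, 8.69, 8.34, 8.54 and 8.67 in sedentary SAMP8, and 8.17, 8.11, 8.02, 8.28 and 7.84 in SAMR1 hippocampus. The SAMR1 array at 8.28 reached the lowest array of each SAMP8 group, so the groups overlapped by that array. The sedentary difference of 0.42 ± 0.12 (SE) was not called (limma adjusted p = 0.0912). With the 2 marker covariates it was 0.26 ± 0.19 (adjusted p = 0.887).

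In the EAG family, Kcnh7, an Erg3 channel gene of low signal here, read 5.61, 5.95, 5.88, 5.29 and 5.64 in exercised SAMP8, 5.29, 5.80, 5.85, 5.39 and 5.77 in sedentary SAMP8, and 6.21, 6.0, 6.05, 6.03 and 6.16 in SAMR1 hippocampus. No SAMP8 array reached the lowest SAMR1 array. Its sedentary log2 difference was -0.47 ± 0.13 (SE) and was not called (limma adjusted p = 0.0797), and 1 array of each SAMP8 group was at the floor, which limits how far the difference can go. Across 11 other settings that difference ran from -0.49 to -0.10. The other 6 EAG genes, each read by its brightest feature, lay between -0.27 and 0.19. A dimmer feature of Kcnh3 differed by -0.35 ± 0.13 (SE), against -0.05 for its brightest, and neither was called.

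The resting and calcium-activated families held no other called gene between sedentary lines. The other 7 calcium- or sodium-activated genes, among them Kcnma1, the BK pore gene, had log2 differences of -0.05 to 0.32. The other 9 tandem-pore genes lay between -0.20 and 0.19. Of the other 11 inward rectifier genes, 10 lay between -0.22 and 0.22 and Kcnj4, described below, was at -0.71. Kcnj10, which encodes the astrocytic channel Kir4.1, was at 13.26 to 14.02 in exercised SAMP8, 13.08 to 13.99 in sedentary SAMP8 and 13.37 to 14.01 in SAMR1 hippocampus, and the 3 ranges overlapped almost fully.

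The non-coding Kcnq1ot1, an imprinted transcript that runs antisense to Kcnq1, read 8.69, 9.06, 8.61, 8.95 and 8.60 in exercised SAMP8, 8.72, 8.42, 8.94, 9.05 and 8.90 in sedentary SAMP8, and 7.91, 8.94, 8.76, 7.09 and 8.86 in SAMR1 hippocampus. SAMR1 replicates 1 and 4 were below every other array and the other 3 SAMR1 arrays lay within the SAMP8 range. The sedentary difference of 0.49 ± 0.28 (SE) was not called (limma adjusted p = 0.564).

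Among the auxiliary genes, 10 of 15 had a negative difference between sedentary lines and 0 were called in the fit without the replicate block. Kcnip1 and Kcnip4 encode KChIP proteins, calcium-binding partners of Kv4 pores. Kcnip1 read 8.96, 8.94, 8.70, 8.61 and 8.99 in exercised SAMP8, 8.92, 8.85, 8.81, 8.73 and 8.81 in sedentary SAMP8, and 9.28, 8.98, 9.22, 9.11 and 9.14 in SAMR1 hippocampus. The sedentary SAMP8 arrays all lay below the SAMR1 arrays, while exercised SAMP8 replicate 5 just reached them, and the sedentary difference was -0.32 ± 0.09 (SE) with a limma adjusted p of 0.0734, or 0.0433 with the replicate block on the compared groups. Kcnip4 lay between 11.07 and 11.14 in sedentary SAMP8 and between 11.22 and 11.44 in SAMR1 hippocampus, a log2 difference of -0.20 ± 0.10 with a limma adjusted p of 0.459. A dimmer Kcnip4 feature differed by -0.26 ± 0.10 (SE) with overlapping groups. The Kv4 pore genes Kcnd1, Kcnd2 and Kcnd3, which these proteins bind, had differences of 0.08, 0.07 and 0.20 and were not called.

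Kcne4, a single-span subunit that can dampen Kv channels, read 5.93, 5.90, 6.06, 5.88 and 5.93 in exercised SAMP8, 6.0, 5.96, 5.71, 6.03 and 5.85 in sedentary SAMP8, and 5.71, 5.38, 5.50, 5.86 and 5.42 in SAMR1 hippocampus. Exercised SAMP8 arrays all lay above the SAMR1 arrays and sedentary SAMP8 arrays overlapped them, and the sedentary difference was 0.34 ± 0.10 (SE) with a limma adjusted p of 0.0972. The signal of Kcne4 was near the floor, and across 11 other settings its sedentary difference ran from 0.01 to 0.38. Kcnmb2, a subunit of the large-conductance BK channel, differed by -0.26 ± 0.13 and was not called. Over all 79 genes, 5 had sedentary SAMP8 and SAMR1 arrays that did not overlap, which is 6.33% of the 79 against 4.19% of all genes. Kcnj11 and Kcnk1 were the higher ones (2.53% against 2.26%), and Kcnh7, Kcnip1 and Kcnip4 the lower ones (3.8% against 1.93%).

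**Figure D2:**
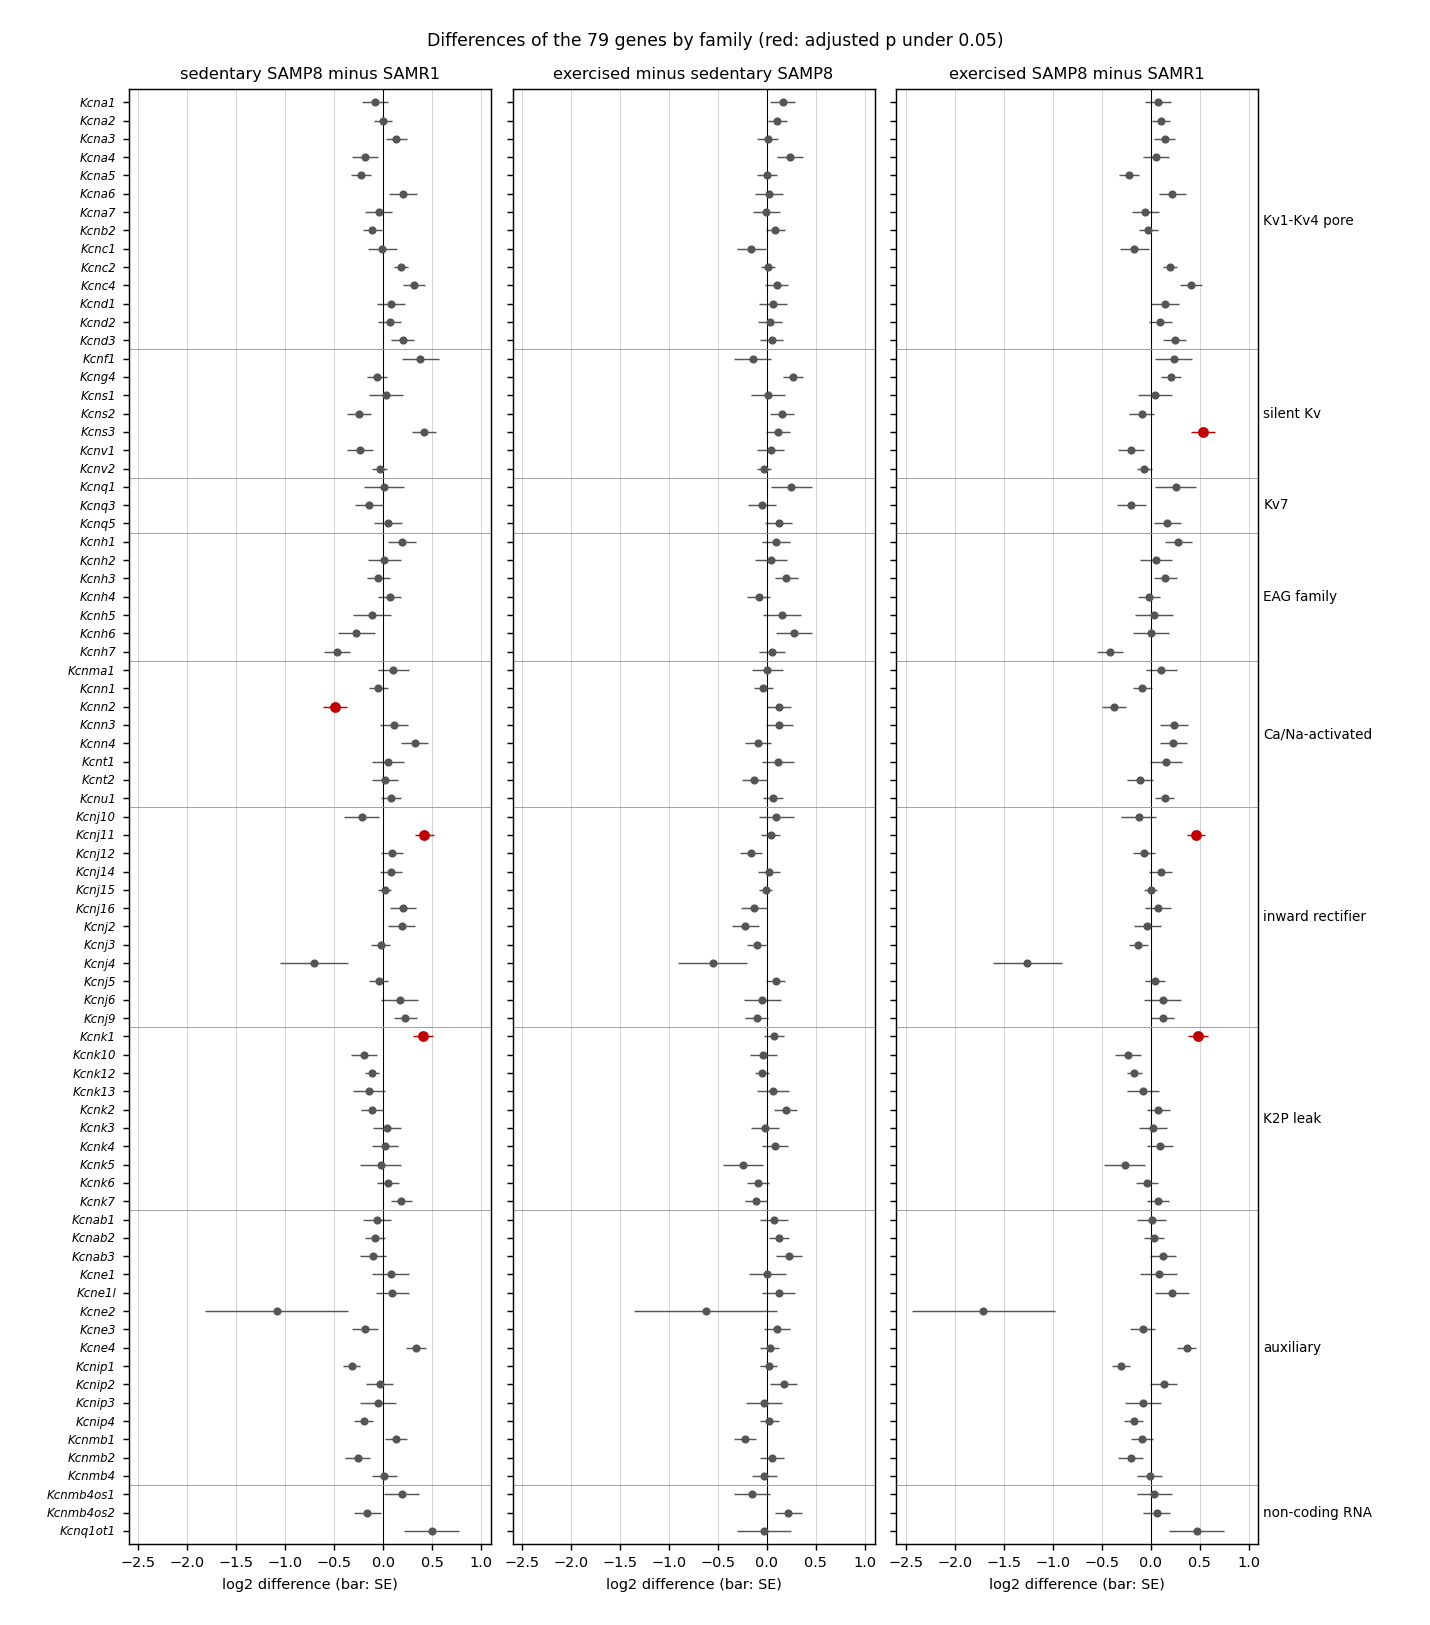
Log2 difference with SE (horizontal axes) of each of the 79 genes, grouped by family, with the comparison of sedentary lines on the left, exercise within SAMP8 in the centre and exercised SAMP8 minus SAMR1 on the right. Red points have an adjusted p under 0.05: Kcnj11, Kcnk1 and Kcnn2 in the first panel, none in the second, and Kcnj11, Kcnk1 and Kcns3 in the third, while Kcne2 and Kcnj4 have the longest error bars.

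The second comparison asked what exercise changed within SAMP8. None of the 79 genes was called, and 0 of all 16401 genes were called by limma (0% of all genes). Unadjusted p was under 0.05 for 573 genes, or 3.49%, and for 1 of the 79, or 1.27%. That gene was Kcng4, a silent Kv subunit gene for Kv6.4, which read 6.95, 7.0, 7.35, 6.85 and 7.18 in exercised SAMP8 and 6.67, 6.94, 6.94, 6.75 and 6.68 in sedentary SAMP8 hippocampus. The groups overlapped, the log2 difference was 0.27 ± 0.10 (SE), and the limma adjusted p was 1.

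Exercised and sedentary SAMP8 arrays overlapped for all 79 genes, where 0.439% of all genes had groups that did not. The median difference of the 79 genes was 0.03 and that of all genes was 0.01, and 50 of the 79, or 63.3%, were above 0, against 54% of all genes. For 66 of the 79 genes the 95% confidence interval of the exercise difference lay within 0.5 of 0 on the log2 scale, and for 77 it lay within 1. The 2 genes whose intervals were wider were Kcne2, from -2.18 to 0.92, and Kcnj4, from -1.30 to 0.19. For the genes that separated the sedentary lines the exercise differences were 0.04 ± 0.09 for Kcnj11, 0.07 ± 0.10 for Kcnk1 and 0.12 ± 0.12 for Kcnn2 (SE), with intervals of -0.16 to 0.23, -0.15 to 0.30 and -0.14 to 0.38.

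Behind Kcng4, the positive exercise differences with the lowest unadjusted p were those of Kcna4 (0.24 ± 0.13), Kcnab3 (0.23 ± 0.13), Kcnh3 (0.20 ± 0.12) and Kcnk2 (0.19 ± 0.12), with SE. These encode the inactivating Kv1.4 pore, a Kv beta subunit, an EAG-like pore and the TREK-1 leak channel. The negative ones were led by Kcnmb1, a BK subunit gene known from smooth muscle, at -0.23 ± 0.11 (SE), and by Kcnj2, the Kir2.1 inward rectifier gene, at -0.22 ± 0.14. Both were at or near the floor, with 2 and 3 arrays at it. By family, 12 of 14 Kv1 to Kv4 genes, 6 of 7 EAG genes and 11 of 15 auxiliary genes were above 0 while 4 of 12 inward rectifier genes were, and every one of these genes had a limma adjusted p of 1.

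The third comparison set exercised SAMP8 against SAMR1, which differ in both line and exercise. It uses the same SAMR1 arrays as the sedentary comparison, so its values stand beside those as a description and are not a second piece of evidence. Kcnj11, Kcnk1 and Kcns3 were higher in exercised SAMP8, 3 of 79 or 3.8%, against 3.6% of all genes, so the share over both directions was close to the background, and 76 genes were not called. In the higher direction the share was 3.8% against 1.75% of all genes, and in the lower direction 0% against 1.85%. Unadjusted p was under 0.05 for 13 genes, or 16.5%, against 15.9% of all genes.

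Kcnj11 averaged 8.91 ± 0.09 in exercised SAMP8 and 8.45 ± 0.14 in SAMR1 hippocampus (SD, n = 5 each), a log2 difference of 0.46 ± 0.09 (SE) with a limma adjusted p of 0.00886. Kcnk1 averaged 11.37 ± 0.15 and Kcns3 8.62 ± 0.23 in exercised SAMP8, against 10.89 ± 0.20 and 8.08 ± 0.16 in SAMR1 hippocampus. Their log2 differences were 0.48 ± 0.10 and 0.53 ± 0.12 (SE), or 1.40-fold and 1.45-fold, with limma adjusted p of 0.0144 and 0.019. Kcnj11 and Kcnk1 kept these calls in all 15 fits without 1 array. Kcns3 lost its call without SAMR1 replicate 5 (adjusted p = 0.0504) or exercised SAMP8 replicate 4 (0.0549), and without SAMR1 replicate 5 Kcnj4 was called in its place (0.0441). With the 2 marker covariates Kcnj11 kept its call (0.50 ± 0.12, adjusted p = 0.0484), while Kcnk1 (0.43 ± 0.13, adjusted p = 0.141) and Kcns3 (0.42 ± 0.15, adjusted p = 0.258) lost theirs with somewhat smaller differences and larger SE.

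Groups did not overlap for 6 genes, or 7.59% against 4.9% of all genes. Kcnj11, Kcnk1, Kcne4 and Kcnc2 were higher in exercised SAMP8 (5.06% against 2.44%), and Kcnh7 and Kcnn2 were lower (2.53% against 2.45%). Kcnc2 lay between 10.65 and 10.81 in exercised SAMP8 and between 10.49 and 10.61 in SAMR1 hippocampus, a small log2 difference of 0.19 ± 0.07 (SE). Just outside the threshold were Kcne4 (difference 0.37, limma adjusted p = 0.0503), Kcnc4 (0.41, 0.059) and Kcnj4 (-1.26, 0.0599). Kcnn2 had -0.37 ± 0.12 (SE) with a limma adjusted p of 0.116, and with the 2 marker covariates it was called lower in exercised SAMP8, at -0.51 ± 0.11 with an adjusted p of 0.0212.

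Among the 60 of 79 genes with promoter entries in the RefSeq table (build GRCm38.p6), Kcnk1 and Kcns3 were the called ones, and the 250 bases upstream of each annotated start are shown because both were higher in exercised SAMP8 than in SAMR1. Kcnj11 and Kcnn2 are named only. The sequences are those of the reference genome and not of the SAMP8 or SAMR1 lines. Capitals mark GC boxes (GGGCGG on either strand). Kcnk1 lies at chr8:125994852-125995101 on the plus strand, and Kcns3 start sites 1 and 2 at chr12:11150843-11151092 and chr12:11150374-11150623 on the minus strand.
Kcnk1: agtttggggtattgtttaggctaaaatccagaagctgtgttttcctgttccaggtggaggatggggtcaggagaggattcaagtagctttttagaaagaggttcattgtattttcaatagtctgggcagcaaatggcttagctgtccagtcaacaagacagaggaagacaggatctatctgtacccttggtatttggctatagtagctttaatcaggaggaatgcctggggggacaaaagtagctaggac
Kcns3 start site 1: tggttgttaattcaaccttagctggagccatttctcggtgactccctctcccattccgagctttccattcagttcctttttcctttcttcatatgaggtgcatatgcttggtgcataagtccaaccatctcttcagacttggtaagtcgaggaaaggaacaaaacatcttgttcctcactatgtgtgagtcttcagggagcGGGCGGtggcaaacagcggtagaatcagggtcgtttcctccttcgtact
Kcns3 start site 2: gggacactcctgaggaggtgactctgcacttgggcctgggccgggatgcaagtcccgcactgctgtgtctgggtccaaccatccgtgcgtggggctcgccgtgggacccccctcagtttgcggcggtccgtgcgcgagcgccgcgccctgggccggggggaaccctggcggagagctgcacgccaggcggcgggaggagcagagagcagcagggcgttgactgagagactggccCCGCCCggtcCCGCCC

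The Kcnk1 stretch held no GC box, and the Kcns3 stretches held 1 and 2. The letters GGGCGG, searched on both strands, were in 47.1% of the 85 promoter entries of potassium channel genes and in 32.7% of 32851 entries of all genes. The letters TATAAA were in 2.35% against 12.4%, CACGTG in 7.06% against 6.02%, and TGACGTCA in 0 of the 85 against 1.55%. The median GC content of the potassium channel entries was 58.8%, against 52.4% over all entries. Genes with several start sites enter more than once.

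Several array features read 25 of the 79 genes, which allowed the differences to be set beside those of other features. Kcnn2 had 11 features, all with the same accession, and all 11 were lower in sedentary SAMP8 than in SAMR1 hippocampus by 0.37 to 0.69 on the log2 scale. Of these, 10 had mean log2 intensities of 11.58 to 12.23 and 1 of 8.74. In a fit over all 34479 features, 7 of the 11 were called at an adjusted p under 0.05, while 2.26% of all features were called. In that fit Kcnj11 was also called between sedentary lines (adjusted p = 0.0226) and Kcnk1 was not (0.0601). The files do not say whether the 10 bright features share a probe sequence, and features on the same arrays are not replicates. All 11 also had a positive exercise difference, 0.12 to 0.28, none called.

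Of the 25 genes, 16 had features of 1 sign between sedentary lines and 9 had mixed signs. Kcnj4, which encodes the inward rectifier Kir2.3, spread the most: its 2 features with the RefSeq accession differed by -0.71 and -0.75 and the third by -0.02. Kcnv1, a silent Kv gene, had features at -0.24 and 0.26. The 10 features of Kcnj6, which encodes the G-protein-gated Kir3.2, lay between -0.06 and 0.17, none called.

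**Figure D3:**
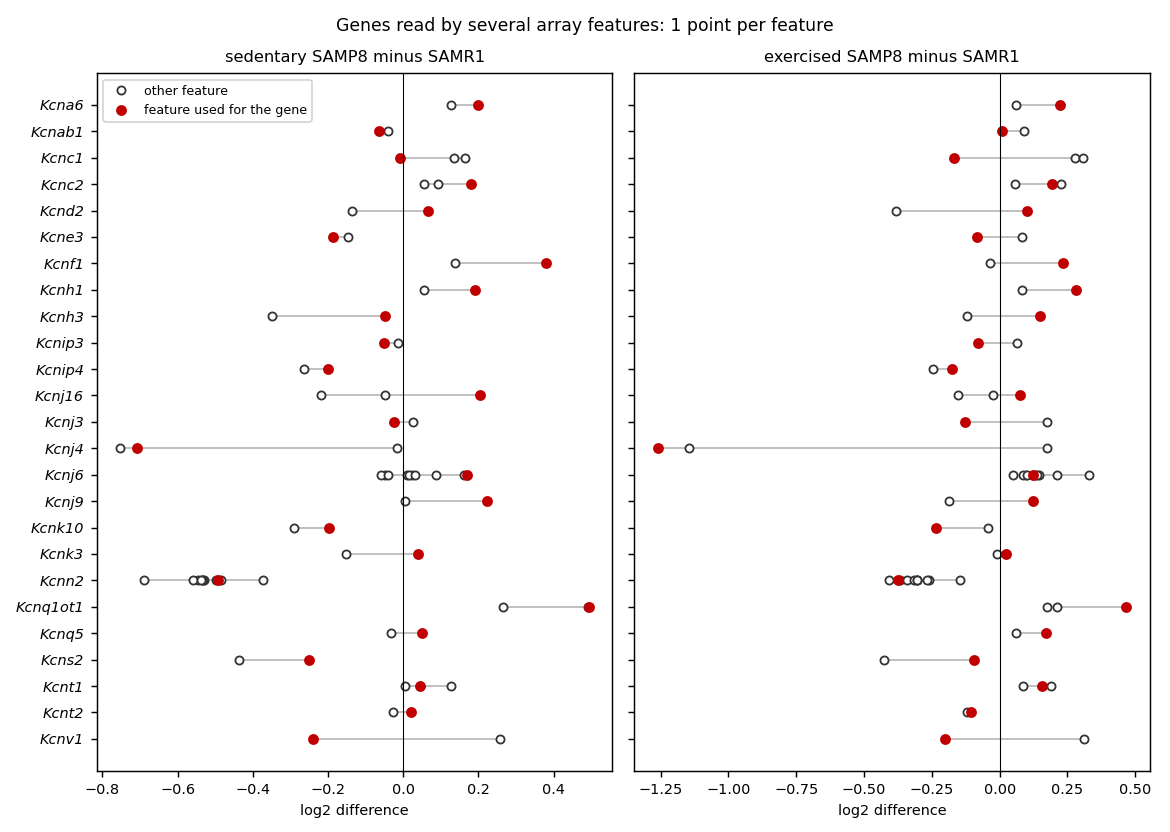
Log2 difference (horizontal axes) of every array feature of the 25 potassium channel genes read by more than 1, in sedentary SAMP8 minus SAMR1 and in exercised SAMP8 minus SAMR1, with the feature used for the gene in red and the others as open circles. All 11 Kcnn2 features lie below 0 in both panels, and 1 of 3 Kcnj4 features lies near 0 or above it.

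Kcne2 and Kcnj4 had the widest spread within groups, with pooled SDs of 1.33 and 0.64 log2 units against a median of 0.22 for the 79 genes and 0.19 for all genes. Kcne2 encodes a single-span subunit that is abundant in the choroid plexus, the epithelium that secretes cerebrospinal fluid and borders the hippocampus. It read 7.0, 9.25, 10.78, 8.80 and 11.75 in exercised SAMP8, 11.98, 10.51, 10.32, 9.03 and 8.88 in sedentary SAMP8, and 11.96, 11.41, 10.91, 11.48 and 10.37 in SAMR1 hippocampus. The groups overlapped, and the log2 differences of -1.09 ± 0.73 between sedentary lines, -0.63 ± 0.73 for exercise and -1.71 ± 0.73 for exercised SAMP8 against SAMR1 (SE) had limma adjusted p of 0.676, 1 and 0.254.

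In each group the array with the highest Kcne2 also had the highest mean of 13 choroid plexus markers, and the array with the lowest had the lowest. Those marker means ran from 6.75 to 9.34 in exercised SAMP8, from 7.09 to 9.28 in sedentary SAMP8 and from 7.89 to 9.40 in SAMR1 hippocampus, and the summed intensities from 2041 to 19830, from 2845 to 20181 and from 6241 to 20139. None of the 13 was called in any comparison, 12 were above the floor on every array, and 11 were lower in sedentary SAMP8 than in SAMR1 hippocampus. With the 2 marker covariates the difference of Kcne2 between exercised SAMP8 and SAMR1 was -0.43 ± 0.25 (SE, limma adjusted p = 0.579).

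Kcnj4 read 10.57, 10.26, 11.64, 11.55 and 10.39 in exercised SAMP8, 11.01, 12.37, 10.59, 11.68 and 11.53 in sedentary SAMP8, and 12.53, 12.42, 11.60, 12.68 and 11.48 in SAMR1 hippocampus. The groups overlapped in all comparisons, and SAMR1 replicates 3 and 5 lay well below the other 3 SAMR1 arrays. Exercised SAMP8 and SAMR1 differed by -1.26 ± 0.35 (SE, limma adjusted p = 0.0599), which fell below the threshold in 5 of 15 fits without 1 array. In this comparison 1 other feature of the gene had a difference of -1.15 and the third had 0.17. With the 2 marker covariates the difference of Kcnj4 was -0.95 ± 0.43 (SE, limma adjusted p = 0.436).

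**Figure D4:**
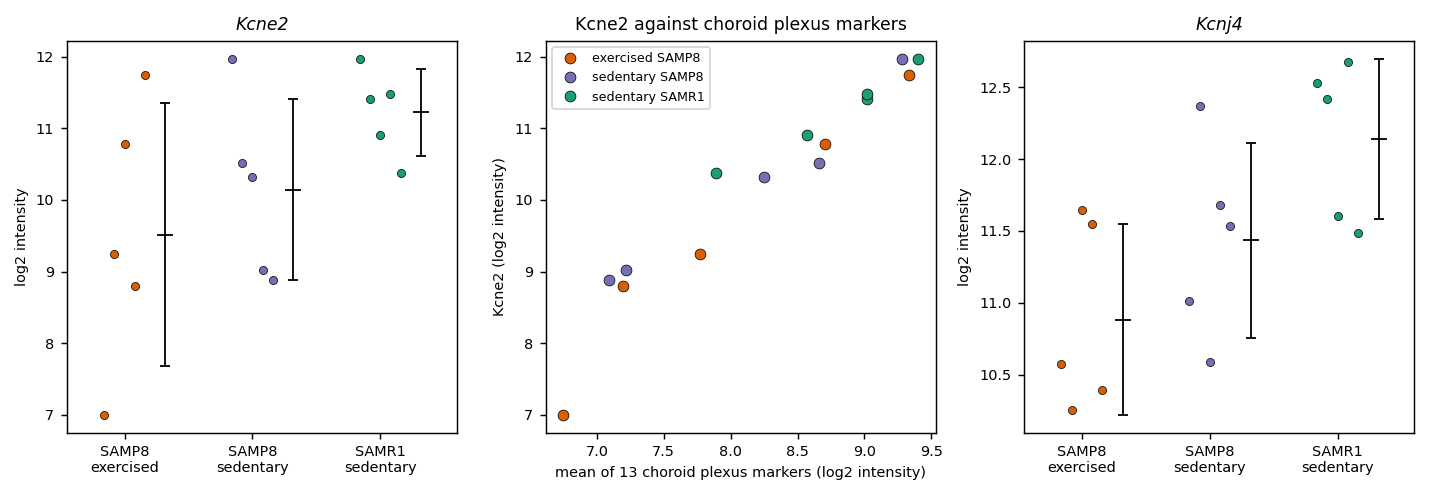
Log2 intensity of Kcne2 and of Kcnj4 by group (left and right, 1 point per array with mean and SD of 5), and Kcne2 against the mean of 13 choroid plexus markers on the same 15 arrays (centre). The lowest Kcne2 value, 7.0 in exercised SAMP8 replicate 1, lies at the lowest marker mean, 6.75.

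Genes that work with potassium channels were read as 3 further lists. Of 32 channel partners measured, Amigo1, a Kv2 partner, was lower in sedentary SAMP8 than in SAMR1 hippocampus (log2 difference -0.37, limma adjusted p = 0.0456), and the other 31 were not called. Of all genes, 2.63% were called in that comparison. Exercised SAMP8 had higher Dpp6, a Kv4 partner (0.61), and lower Cntn2, which anchors Kv1 channels beside nodes of Ranvier (-1.06), than SAMR1, with 30 not called. There 3.6% of all genes were called. Of 11 oligodendrocyte lineage markers, Mbp, Mog, Opalin and Ermn were also lower in exercised SAMP8 than in SAMR1, where 1.85% of all genes were called lower. The other 7 were not called, 2 of them above 0 (Pdgfra 0.11 and Cspg4 0.19), and the part of these markers in the Cntn2 difference was not tested.

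Of 13 potassium pump and cotransporter genes measured, none was called in any of the 3 comparisons, where 0% to 3.6% of all genes were. Of 27 HCN, sodium and calcium channel genes, the T-type calcium channel gene Cacna1g was higher in sedentary SAMP8 (0.77) and in exercised SAMP8 (0.84) than in SAMR1 hippocampus. Exercised SAMP8 also had higher Cacna1d (0.40) and lower Scn2a (-0.48), and exercise within SAMP8 gave 0 calls in each list. The calls were 1 of these 27 between sedentary lines, where 2.63% of all genes were called. In exercised SAMP8 against SAMR1 they were 2 higher and 1 lower, where 3.6% of all genes were called.

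Positions in the RefSeq gene order were used to see whether called potassium channel genes lay next to other called genes. Of the 79 genes, 12, or 15.2%, had a called gene among the 5 on either side in the sedentary comparison, against 18.8% of all 16373 positioned genes and 53% of the called ones. Kcnk1 lay near Slc35f3, which was lower in sedentary SAMP8 (log2 difference -0.96), and neither Kcnj11 nor Kcnn2 had such a neighbour. In exercised SAMP8 against SAMR1 it was 16 of 79, or 20.3%, against 25.7% of all genes.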

How the data were processed

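Total RNA from whole hippocampus of 15 samples (5 per group) was labelled with Cy3 and hybridised to one-colour arrays, per the labels' protocols. The authors deposited linear intensity values, already brought to nearly equal medians (208 to 209) across arrays; limma is the tool named in the submitters' processing notes, and neither the background correction nor the normalization is stated there. Of 45220 rows, 10741 held no value, and 34479 had values. Platform annotation gave 1 symbol to 27968 of these and several to 38 (not used), and 6473 were not listed in it. The brightest feature stood for each of 16401 genes. Intensities were floored at the 5th percentile (39.2) and converted to log2. One limma model (version 3.58.1, R 4.3.3) with 3 group means was tested by two-sided moderated tests with Benjamini-Hochberg adjustment over all genes, in 3 comparisons, and the pipeline was tested on simulated data. The number of arrays limits the precision; the median SE of the 79 differences was 0.13. Of the Kcn symbols of the annotation, those without values were not analysed here.

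The members and gene lists were chosen with earlier results of these data known. Genes named are the called members, the 6 higher and 6 lower with the lowest p in each comparison, those with non-overlapping groups, members with several features, wide spread or list calls. The family pattern was widened after the values were seen so that Kcnmb4os1 and Kcnmb4os2 counted as non-coding. The fit over features, the neighbour count, the promoter motifs and the figures were also chosen after the values were seen. Replicate numbers come from the labels. Same-numbered deviations of arrays correlated above 0.1 in 5 of 5 pairs between sedentary SAMP8 and SAMR1 (0.23 to 0.52). They did so in 1 of 5 between exercised and sedentary SAMP8 and in 2 of 5 between exercised SAMP8 and SAMR1. The numbers were therefore taken to pair the sedentary lines only. The main fit held no replicate term, and replicate blocks were fitted only as alternatives. Alternatives were 12 other settings and 15 fits that left out 1 array each. The meningeal list includes Crym, which is not specific to meninges.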

Additional observations from a re-analysis of the deposited data

Results flagged for a closer look

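Among the 26 named potassium channel genes, 78 groups of 5 arrays were examined for 1 array far from the other 4, and 4 were found, where 3.9 are expected by chance. Kcne4 was 6.06 in exercised SAMP8 replicate 3, above 5.93 in the next array. Kcnj12, a Kir2.2 inward rectifier gene, was 9.34 in SAMR1 replicate 5, above 9.03, and this is the array that also stood high in striatal markers. Kcnk5, a tandem-pore leak channel gene, was 5.99 in exercised SAMP8 replicate 2 while the other 4 arrays of the group were at the floor, 5.29. Kcnmb4os2, a non-coding RNA gene, was 8.91 in exercised SAMP8 replicate 4, above 8.37.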

How the results depend on the processing

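Between sedentary SAMP8 and SAMR1, 3 genes were called beside 2.63% of all genes, and 0 to 4 beside 2.05% to 2.88% when 1 array was left out. The replicate block over all 15 arrays gave 1 (beside 2.8% of all genes), array weights gave 5 (3.37%), and choroid plexus and meningeal covariates gave 0 (0.848%). With those covariates the differences were 0.49 for Kcnj11, 0.38 for Kcnk1 and -0.59 for Kcnn2, with larger SE. The replicate block on the compared groups gave 3 (beside 3.95% of all genes), of which Kcnn2 alone was also called without the block. In exercised SAMP8 against SAMR1 the count was 3 (beside 3.6% of all genes), and 3 to 5 without 1 array (2.48% to 3.65%). It was 5 with the replicate block over all 15 arrays (4.43%) and 5 with log2(intensity + 50) (3.89%). It was 6 without the dimmest 40% of genes (5.47%), which left 43 of the 79. The share of all genes called thus moved with the setting too. In exercised SAMP8 against SAMR1, and between exercised and sedentary SAMP8, the arrays shared only a number and the block was no pairing. The exercise count was 0 in all 27 alternatives. The median difference of the 79 genes between sedentary lines lay on both sides of 0 when 1 array was left out (-0.02 to 0.03). Of single genes, the exercise difference of Kcnmb1 was 0 with a floor at the 20th percentile, where every array was at the floor, and that of Kcnj3 was 0.024 when the features of each gene were averaged, the opposite sign to -0.10. Kcne4 and Kcnh7 were also dim. In exercised SAMP8 against SAMR1 their differences ran from 0.01 to 0.41 and from -0.44 to -0.10 across 11 other settings. Signal over background and the deposited normalization could not be examined, and dim genes (Kcnv2, Kcnj5, Kcnj15, Kcnk5, Kcnh7) have differences bounded by the floor.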
